A study of Mus musculus with 75 samples.

Results

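The actin and tubulin cytoskeleton was followed here through 42 genes, 34 that encode actin or proteins that build, cut, cap, cross-link or pull on actin filaments and 8 that encode tubulins. The members were given as a list of gene symbols and were found as rows of the deposited count table, which holds 32245 genes in all. They were measured in 75 kidney libraries of adult mice that fall into 12 groups, 3 days after unilateral ureter obstruction (UUO), an operation in which a single ureter is tied so that urine backs up into that kidney. The other, unligated kidney of the operated mice served as the contralateral control (CL).

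The groups form 3 arms. In the ABTAA arm, mice were given either a human IgG Fc control protein (IgG, 8 CL and 8 UUO libraries) or ABTAA, an antibody that binds angiopoietin-2 and turns it into an activator of the endothelial receptor TIE2 (labelled ABT, 7 CL and 7 UUO). In the Veptp arm, mice with floxed Veptp (gene symbol Ptprb, a phosphatase that opposes TIE2) carried the tamoxifen-inducible Cdh5-CreERT2 driver of endothelium (labelled VeKO, 6 CL and 8 UUO), and noninduced Veptp wt/lox mice with the same Cre driver were the controls (labelled VeWT, 7 CL and 8 UUO). In the Pdgfb arm, floxed Pdgfb was deleted in the whole body by the inducible Actb-CreERT2 driver, with tamoxifen given before surgery (labelled PbKO, 4 CL and 4 UUO), and Cre-negative littermates with Pdgfb wt/lox or lox/lox alleles were the controls (labelled PbWT, 4 CL and 4 UUO). The PbWT CL group includes sham-operated kidneys that the labels do not mark.

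Actin monomers assemble into filaments that are nucleated by the Arp2/3 complex, supplied with monomers by profilin, severed by cofilin and kept short by capping proteins. Filaments are cross-linked, tied to the membrane by ERM proteins, anchored to integrins at focal adhesions and contracted by non-muscle myosin II. Microtubules are polymers of paired alpha- and beta-tubulin, each encoded by several near-identical genes. In the tubules of the kidney, actin carries the brush border and the junctions, and injured tubules, activated fibroblasts and migrating leukocytes all remodel their cytoskeleton.

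Several tubulin genes can hardly be told apart by sequence, which bears on how reads were assigned to them. The coding sequences of Tuba1a and Tuba1b were 98.3% identical over 1353 aligned bases, those of Tubb2a and Tubb2b 96.5% over 1335 bases, and those of Tubb2a and Tubb4b 83.7%. The last 60 coding bases before the stop codon of 3 beta-tubulin genes are shown because this acidic tail is where the isotypes differ most, with capitals at the 16 positions that differ among them. All are from GENCODE transcripts of build GRCm38, 5′ to 3′.
Tubb2a: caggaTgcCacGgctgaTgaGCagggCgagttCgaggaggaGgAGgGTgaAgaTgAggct
Tubb2b: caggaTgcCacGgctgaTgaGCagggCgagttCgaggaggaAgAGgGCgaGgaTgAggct
Tubb4b: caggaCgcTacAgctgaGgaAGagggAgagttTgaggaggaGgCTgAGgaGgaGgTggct

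Of all 50-base windows of a gene's protein-coding transcripts, the share that also occurs, on either strand, in a transcript of another gene was 75.5% for Tuba1a, 83.1% for Tuba1b, 61.0% for Tuba1c, 49.6% for Tubb2a, 39.3% for Tubb2b and 55.5% for Tubb4b. For Tubb5 it was 0.102%, and for Tubb6 it was 0%. Among the actin genes it was highest for Actg1 (45.6%), Actr3 (44.5%), Tpm3 (40.0%), Vcl (38.2%) and Arpc1b (35.3%), and it was 0% for Tmsb4x, Pfn1, Coro1a, Capg, Arpc3, Msn, Flna and Vasp. Any match counts: the shared windows of Vcl lay in Ap3m1 alone, and those of Arpc1b were spread over 282 other genes. The sources used here do not give how reads with several matches were counted, and the split of counts among the alpha-tubulins, between Tubb2a and Tubb2b and for the other genes with large shares is uncertain.

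Library depth ran from 172827 to 2341800 counts (median 757897), and no pair of replicates agreed within sampling noise. Levels are given as CPM, the count relative to the library's total, with totals scaled by the trimmed mean of M-values (TMM) within an arm. A gene was called changed at a Benjamini-Hochberg adjusted p below 0.05 in edgeR's quasi-likelihood test, adjusted over all genes tested in the arm. Errors of log2 fold changes are standard errors. All 42 genes passed the filter on low counts in every arm. Library names come in a form with the sign _ between letter and number (30 libraries, called split names here) and a form without it (45 libraries, called joined names, all of the Pdgfb arm among them), and what the forms stand for is not stated. In 24 libraries both Xist and Y-linked transcripts had at least 10 counts. Ptprb, the gene of Veptp, had medians of 28.5 CPM in VeKO and 42.5 CPM in VeWT UUO libraries and was not called (log2 fold change -0.69 ± 0.33, adjusted p = 0.9999). Pdgfb had 34.0 to 41.4 CPM in PbKO and 44.1 to 58.9 CPM in PbWT UUO libraries, without overlap but not called (-0.47 ± 0.21, adjusted p = 0.125). In CL kidneys, where it had 4 to 19 counts a library, its medians were 17.6 CPM in PbKO and 8.73 CPM in PbWT libraries, also not called (0.78 ± 0.33, adjusted p = 1.0), while its response to UUO was lower in PbKO than in PbWT mice (-1.26 ± 0.39, adjusted p = 0.046). Neither targeted gene was called between genotypes in UUO or CL kidneys, so PbKO and VeKO below give the genotype as labelled. A single library stood apart: VeKO CL replicate 2 had a summed level of 10 injured-tubule markers of 17325 CPM, against 1697 to 5665 in the other 5 libraries of its group, and a summed level of 18 leukocyte markers of 664 CPM, against 146 to 273.

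The share of all counts taken by the 34 actin genes had a higher median in UUO than in CL libraries in each of the 3 control groups and in each of the 3 treated or mutant groups. In IgG mice it lay between 0.419% and 0.567% (median 0.516%) in CL libraries and between 0.869% and 1.06% (median 0.970%) in UUO libraries, so that the groups did not overlap. The 8 tubulin genes took 0.0490% to 0.0915% (median 0.0679%) of counts in CL and 0.123% to 0.158% (median 0.143%) in UUO libraries of IgG mice. In PbWT mice the actin share was 0.459% to 0.593% in CL and 0.923% to 1.02% in UUO libraries. In PbKO mice the UUO libraries reached only 0.652% to 0.756%, above their CL libraries at 0.510% to 0.561% but below all 4 PbWT UUO libraries. These shares are descriptions with no test.

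**Figure D1:**
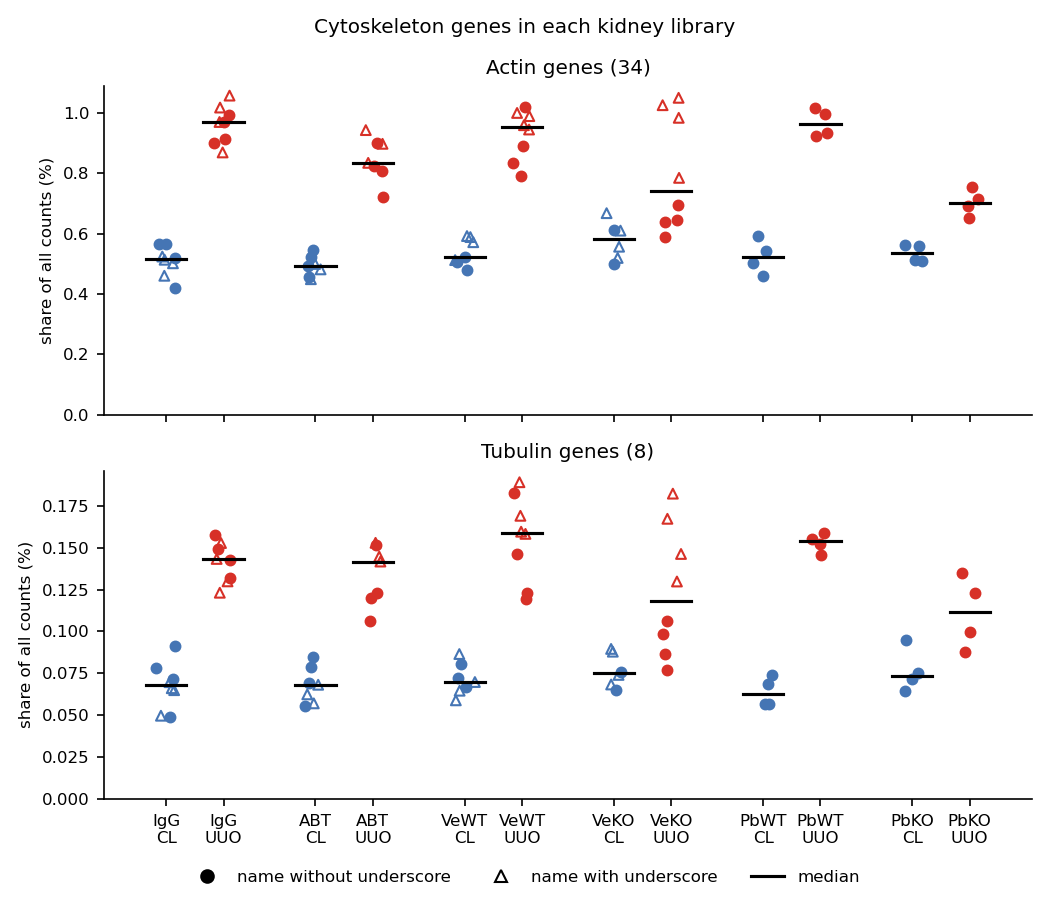
Share of all counts (%) taken by the 34 actin genes (top) and the 8 tubulin genes (bottom) in each library, by group, with CL in blue and UUO in red. Filled circles are libraries with joined names, open triangles those with split names, and bars are medians. The UUO libraries of IgG and PbWT mice sit above all their CL libraries, and the PbKO UUO libraries lie below the PbWT UUO libraries for both sets.

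In IgG mice, 24 of 34 actin genes and 7 of 8 tubulin genes were higher in UUO than in CL kidneys and none was lower, where 16.3% of all 9579 genes tested were called higher and 18.2% lower. The median log2 fold change was 0.65 over the actin genes and 1.096 over the tubulin genes, against 0.02 over all genes. The largest rise was that of Tmsb10, thymosin beta-10, which holds actin monomers in reserve. Lying on chromosome 6 (72957347 to 72958748, build GRCm38), Tmsb10 measured 8.00 to 43.1 CPM (median 19.5) in 8 CL and 51.3 to 374 CPM (median 158) in 8 UUO libraries. The groups did not overlap, and the fold change was 7.29 (log2 2.87 ± 0.36, adjusted p = 1.24e-07). Its relative Tmsb4x, thymosin beta-4, went from 240 to 409 CPM in CL to 642 to 1275 CPM in UUO libraries (log2 fold change 1.55 ± 0.17, adjusted p = 1.12e-08). Of the other monomer-handling genes, the severing factor Cfl1 rose by 0.62 ± 0.13 and the recycling factor Cap1 by 0.52 ± 0.16 on the log2 scale, while profilin, Pfn1, had 0.66 ± 0.37 and was not called.

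Within the Arp2/3 complex, which nucleates branched filaments, the subunits moved unequally. Arpc1b had 52.9 to 126 CPM (median 88.2) in CL and 279 to 388 CPM (median 336) in UUO libraries of IgG mice, with no overlap (log2 fold change 1.83 ± 0.15, adjusted p = 1.85e-11). Arpc1a, the alternative gene for the same subunit, next to Arpc1b on chromosome 5 (145083830 to 145108761 and 145114215 to 145130705), had 106 to 194 CPM in CL and 120 to 150 CPM in UUO libraries. Its log2 fold change was -0.11 ± 0.11 (adjusted p = 0.50, 95% interval -0.33 to 0.12), and its sign turned without TMM scaling. The coding sequences of this pair were 74.8% identical, and 1.73% of the windows of Arpc1a were shared with other genes. Arpc1b was called higher in all 6 comparisons of UUO with CL, with log2 fold changes of 1.47 ± 0.16 in ABT, 1.65 ± 0.21 in VeWT, 1.22 ± 0.22 in VeKO, 1.61 ± 0.16 in PbWT and 1.07 ± 0.16 in PbKO mice, while Arpc1a was called in none and lay between -0.12 and 0.04. Of the other subunits, Arpc5 (0.35 ± 0.12) and Actr3 (0.44 ± 0.13) rose in IgG mice. Arpc2, Arpc3, Arpc4 and Actr2 had log2 fold changes of 0.20 to 0.29 there and were not called.

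The actin isoforms themselves had log2 fold changes below 1. Actb, beta-actin, had 541 to 1017 CPM (median 669) in CL and 756 to 1681 CPM (median 1296) in UUO libraries of IgG mice, with overlapping groups (log2 fold change 0.76 ± 0.17, adjusted p = 0.000628). Actg1, gamma-actin, had 377 to 736 CPM in CL and 525.8 to 914 CPM in UUO libraries (0.38 ± 0.15, adjusted p = 0.0476), and this call did not survive in 25 of the 30 fits that left out a single library of the arm, with log2 fold changes of 0.31 to 0.46 and adjusted p up to 0.134. In PbWT mice Actb rose by 0.52 ± 0.15 while Actg1 had -0.11 ± 0.15 and was not called, and its sign there turned without TMM scaling.

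Among the cross-linkers and membrane linkers, Flna, filamin A, had 45.6 to 108 CPM (median 69.3) in CL and 208 to 393 CPM (median 312) in UUO libraries of IgG mice (log2 fold change 2.13 ± 0.18, adjusted p = 4.2e-11). It was called higher in all 6 comparisons, and in VeKO mice it was the single member whose UUO libraries all lay above the CL libraries, where 0.697% of all genes did so. Msn, moesin, which ties filaments to the membrane, rose by 1.43 ± 0.16 in IgG mice. Its relative Ezr, ezrin, a component of the brush border, had -0.03 ± 0.11, a sign that turned without TMM scaling, and was called in no comparison of UUO with CL. Lcp1, the filament bundler L-plastin of leukocytes, rose by 1.47 ± 0.23, and the scaffold Iqgap1 by 0.73 ± 0.14.

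All 4 capping and coronin genes rose in IgG mice. Coro1a, a coronin best known from leukocytes, went from 10.7 to 32.6 CPM in CL to 59.5 to 107 CPM in UUO libraries, without overlap (log2 fold change 1.85 ± 0.20). Capg rose by 1.12 ± 0.28, Coro1c by 0.63 ± 0.18 and Coro1b by 0.54 ± 0.14. At focal adhesions, the integrin-linking adaptor Vcl (vinculin) rose by 1.33 ± 0.15, the filament-elongating factor Vasp by 1.17 ± 0.30 and Zyx (zyxin) by 0.72 ± 0.28, whereas talin, Tln1, had 0.32 ± 0.13 (adjusted p = 0.0682). Of the contractile genes, the tropomyosin Tpm4 rose by 1.87 ± 0.17, the myosin heavy chain Myh9 by 1.41 ± 0.14, Tpm3 by 0.95 ± 0.11 and the light chain Myl12a by 0.64 ± 0.13. The light chains Myl6 (0.25 ± 0.24) and Myl12b (0.16 ± 0.13) were not called.

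**Figure D2:**
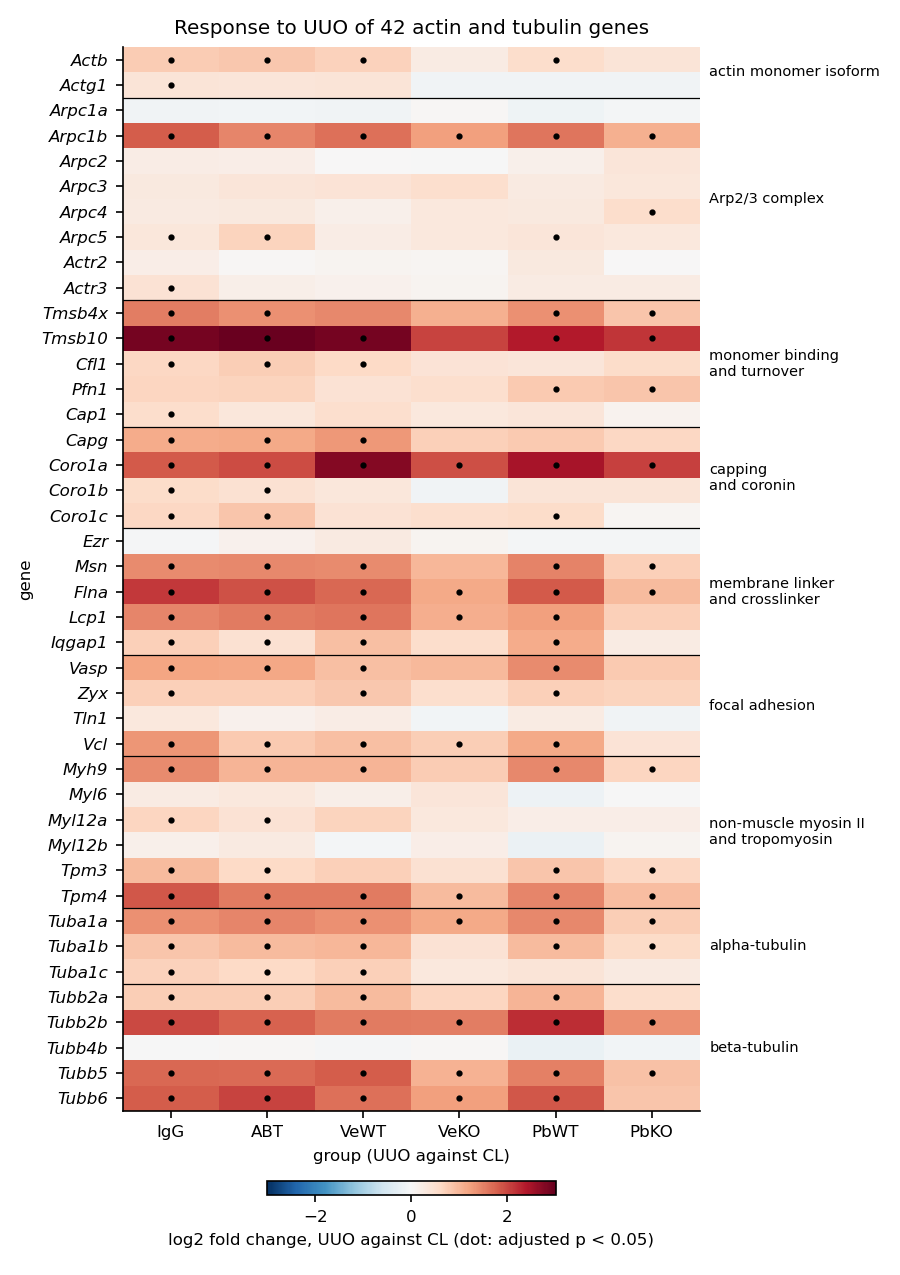
Log2 fold change of UUO against CL for each of the 42 genes (rows, by role) in each of 6 groups (columns), from -3 in blue to 3 in red, with a dot where the adjusted p was below 0.05. Arpc1b, Flna, Coro1a, Tpm4, Tuba1a, Tubb2b and Tubb5 carry a dot in every column, whereas Arpc1a, Ezr and Tubb4b carry none.

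The tubulins rose together in IgG mice with a single exception. In IgG mice Tubb2b rose by 1.97 ± 0.19, Tubb6 by 1.81 ± 0.26, Tubb5 by 1.71 ± 0.13 and Tubb2a by 0.74 ± 0.14 on the log2 scale, and the alpha-tubulins Tuba1a, Tuba1b and Tuba1c by 1.37 ± 0.28, 0.83 ± 0.23 and 0.70 ± 0.19. Tubb5 (chromosome 17, 35833921 to 35838306), the beta-tubulin that shares almost no windows with other genes, had 48.4 to 101 CPM (median 80.3) in CL and 223 to 309 CPM (median 264) in UUO libraries, with no overlap (adjusted p = 3.28e-12). Tubb4b (chromosome 2, 25222160 to 25224702) had 213 to 312 CPM (median 265) in CL and 203 to 292 CPM (median 257) in UUO libraries, and its log2 fold change was -0.01 ± 0.12 (adjusted p = 0.947, 95% interval -0.24 to 0.21). Tubb4b was not called in any of the 6 comparisons of UUO with CL, where its values ran from -0.20 ± 0.13 in PbWT to 0.04 ± 0.20 in VeKO mice and its sign changed with the scaling in IgG, VeWT, PbWT and PbKO mice. Of the counts of the 5 beta-tubulin genes, Tubb4b took 50.9% to 62.2% (median 55.1%) in CL and 25.0% to 36.7% (median 31.2%) in UUO libraries of IgG mice. In PbWT mice the median went from 55.9% to 27.2%. These shares are of counts, not per length.

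**Figure D3:**
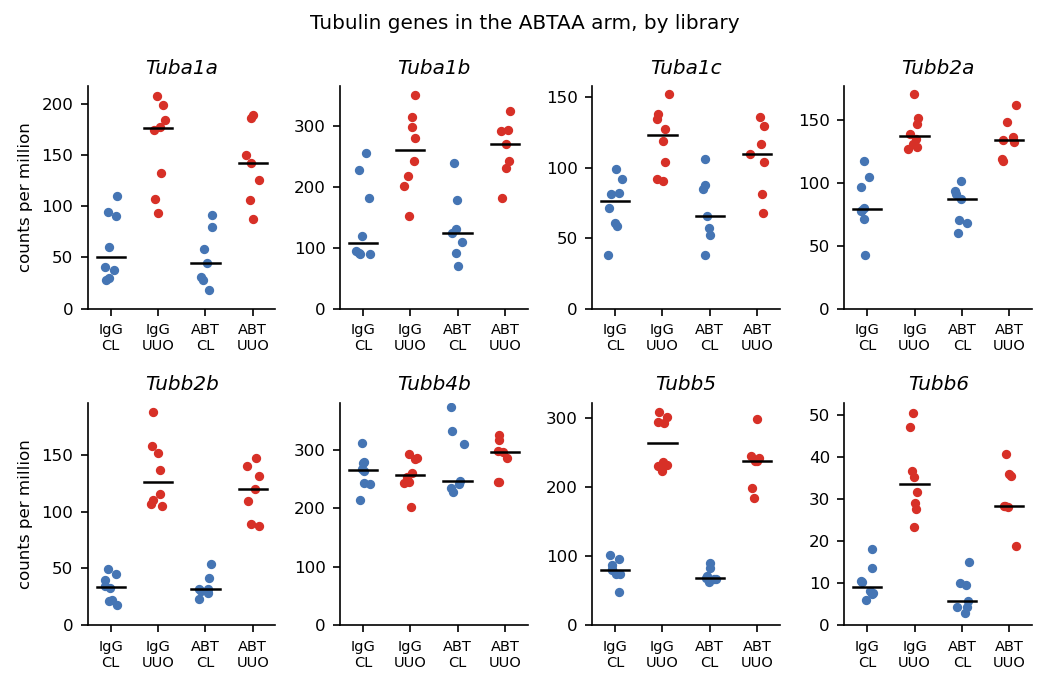
Level of each tubulin gene in CPM (TMM-scaled, axes from 0) in every library of the ABTAA arm, with CL in blue, UUO in red and bars at the medians. Tubb2a, Tubb2b, Tubb5 and Tubb6 show no overlap between CL and UUO libraries in either treatment, whereas for Tubb4b the ranges of CL and UUO libraries overlap, with medians of 265 and 257 in IgG mice.

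Markers of several cell types moved along with these genes. In IgG mice, 14 of 14 tested leukocyte markers, 8 of 9 tested mesenchymal markers, 10 of 10 injured-tubule markers and 10 of 10 proliferation markers were called higher, and 10 of 10 proximal tubule markers were called lower. The summed leukocyte markers lay between 173 and 354 CPM in CL and between 677 and 1317 CPM in UUO libraries, and the mesenchymal sum went from 271 to 478 CPM to 1397 to 2156 CPM. Among the leukocyte markers, the B cell gene Ms4a1 was at 0 in all IgG CL libraries. Of the endothelial markers 2 were called higher and 1 lower. The part of these cells in the rise of the cytoskeleton genes was not tested, and in whole kidney more cells of a type and more RNA per cell cannot be told apart.

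The same systems hold further genes. Of 71 further actin genes, 59 were tested in IgG mice, of which 23 were called higher and 2 lower (median log2 fold change 0.28), where 16.3% of all genes were higher and 18.2% lower (median 0.02). Rhob, a small GTPase that acts on actin, rose by 2.46 ± 0.26, the cross-linker Actn1 by 2.36 ± 0.24 and Tpm1 by 1.77 ± 0.15. The genes called lower were Tln2 (-1.14 ± 0.19) and the ERM gene Rdx (-0.43 ± 0.12). Of 37 further tubulin and microtubule genes, 30 were tested, of which 7 were called higher and 2 lower (median 0.17), against the same shares of all genes. Map1b (1.19 ± 0.29), the tubulin-sequestering Stmn1 (0.98 ± 0.18) and Map4 (0.90 ± 0.15) rose, while the alpha-tubulin Tuba4a (-0.95 ± 0.22) and Map7 (-0.46 ± 0.16) fell.

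The serum response factor (SRF), a transcription factor switched on when the pool of free actin monomers shrinks, binds a motif called the CArG box, and the 300-base RefSeq promoter windows (250 bases before and 50 after the start, build GRCm38.p6) of the members were searched for it. An entry existed for 32 actin and 6 tubulin genes, and Actb, Coro1b, Tubb2b and Tubb6, which had none, were not searched. The box, which is palindromic so that both strands are read at once, was found in 4 of these 32 actin genes and in none of the 6 tubulin genes, against 1.81% of all 27025 genes. The part of each window around the box is shown, with the box in capitals, to place the box in each gene that holds it. Vcl (log2 fold change 1.33 in IgG mice) and Actg1 (0.38) were called, and Myl6 (0.25) and Arpc4 (0.26) were not. No difference among these 4 genes was tested, and a match is a description of letters and no evidence of binding. Vcl lies at chr14:20929148-20929215 (plus strand), Actg1 at chr11:120348541-120348620 (minus), Myl6 at chr10:128493015-128493094 (minus) and Arpc4 at chr6:113377863-113377907 (plus).
Vcl: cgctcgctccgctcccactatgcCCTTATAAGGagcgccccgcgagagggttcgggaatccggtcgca
Actg1: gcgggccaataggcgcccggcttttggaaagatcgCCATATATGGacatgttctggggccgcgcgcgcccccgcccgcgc
Myl6: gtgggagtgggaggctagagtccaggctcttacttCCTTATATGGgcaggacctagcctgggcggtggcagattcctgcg
Arpc4: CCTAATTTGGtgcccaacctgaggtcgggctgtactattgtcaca

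In ABTAA-treated mice, 20 actin and 7 tubulin genes were higher in UUO than in CL kidneys (12.6% of all genes higher, 12.5% lower), with medians of 0.67 and 1.22. Thinned to the depth of the shallowest library, 9 and 4 were called higher. The 5 largest rises among called actin genes were Tmsb10 (2.95 ± 0.38), Coro1a (1.95 ± 0.21), Flna (1.90 ± 0.19), Tpm4 (1.57 ± 0.18) and Lcp1 (1.55 ± 0.24). Tmsb10 had 5.81 to 34.1 CPM in 7 CL and 79.8 to 221 CPM in 7 UUO libraries. The UUO libraries lay above all CL libraries for 14 actin and 4 tubulin genes in ABT mice (4.06% of all genes) and for the same numbers in IgG mice (4.44%). Actb rose by 0.81 ± 0.18, while Actg1 had 0.37 ± 0.16 and was not called. The beta-tubulins Tubb6 (2.03 ± 0.27), Tubb2b (1.76 ± 0.20), Tubb5 (1.69 ± 0.14) and Tubb2a (0.73 ± 0.15) rose, as did Tuba1a (1.48 ± 0.30), Tuba1b (0.96 ± 0.24) and Tuba1c (0.59 ± 0.20). The lowest actin genes were Arpc1a (-0.07), Actr2 (0.04) and Ezr (0.13), none of them called. The call of Tuba1c was lost without ABT CL replicate 5 or 6 or ABT UUO replicate 4 (adjusted p up to 0.0588).

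The question whether TIE2 activation by ABTAA altered this response was addressed by comparing the treatments directly. No member was called between ABT and IgG mice in UUO kidneys, nor was any of the 9579 genes (0%). At an unadjusted p below 0.05, 4 members and 340 of all genes passed, and DESeq2 and edgeR's exact test called no member either. The members' log2 differences ran from -0.43 to 0.15, with medians of -0.14 for both sets against 0.01 for all genes, and 33 of 42 were below 0. Cell type markers, none of them called, lay off 0 in the same contrast: 10 of 10 injured-tubule (median -0.22), 8 of 9 mesenchymal (-0.31) and 12 of 14 leukocyte markers (-0.22) were below 0 and 10 of 10 proximal tubule markers (0.33) above it. Their part in the members' differences was not tested. Flna, for example, had 171 to 342 CPM in ABT and 208 to 393 CPM in IgG UUO libraries (-0.31 ± 0.18). In CL kidneys (0%, 2 members at an unadjusted p below 0.05) and for the difference of the responses to UUO (0%, 2 members) no member was called by the quasi-likelihood test or by DESeq2. The 0% is of adjusted calls, and the shares of all genes at the unadjusted threshold are not given here.

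In VeWT mice, 15 actin and 7 tubulin genes were higher in UUO kidneys (10.0% of all genes higher, 8.38% lower), with medians of 0.63 and 1.18. Tmsb10 rose by 2.87 ± 0.62, Coro1a by 2.75 ± 0.42, Flna by 1.72 ± 0.20, Arpc1b by 1.65 ± 0.21 and Lcp1 by 1.60 ± 0.28, and Tubb5 by 1.81 ± 0.19. Tubb5 had 71.7 to 106 CPM in 7 CL and 216 to 416 CPM in 8 UUO libraries. In all, 6 actin and 2 tubulin genes separated without overlap (3.26% of all genes). Actb rose by 0.70 ± 0.17, while Actg1 had 0.39 ± 0.18 and was not called. The other tubulins that rose were Tubb6 (1.66 ± 0.31), Tubb2b (1.57 ± 0.36), Tuba1a (1.38 ± 0.23), Tuba1b (0.99 ± 0.16), Tubb2a (0.95 ± 0.20) and Tuba1c (0.71 ± 0.18). The lowest actin genes were Arpc1a (-0.10), Myl12b (-0.05) and Arpc2 (0.02).

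In VeKO mice 6 actin genes (Coro1a, Arpc1b, Flna, Lcp1, Tpm4 and Vcl) and 4 tubulin genes (Tuba1a, Tubb2b, Tubb5 and Tubb6) were called higher and none lower, against 4.47% of all genes higher and 3.47% lower, with medians of 0.48 and 0.85. The actin count was 12 with DESeq2 or with all 12 groups in 1 fit, and 3 with the compared groups alone. Thinned to the depth of the shallowest library, 0 actin and 0 tubulin genes were called higher. Coro1a, the largest, had 6.53 to 50.4 CPM in 6 CL and 9.58 to 87.6 CPM in 8 UUO libraries (log2 fold change 1.94 ± 0.44, adjusted p = 0.0051). Tmsb10 had a larger value that did not pass (2.02 ± 0.67, adjusted p = 0.0579). The highest CL value of Coro1a, 50.4 CPM, and the highest of Tmsb10, 142 CPM, were those of replicate 2, the CL library that stood apart, and the next highest CL values were 15.6 CPM for each gene. Without that library 7 actin and 4 tubulin genes were called higher (5.54% of all genes higher, 4.62% lower). Flna (1.15 ± 0.21), Arpc1b (1.22 ± 0.22), Lcp1 (1.08 ± 0.30) and Tpm4 (0.95 ± 0.23) followed Coro1a among the called actin genes. The called tubulins were Tubb2b (1.53 ± 0.39), Tubb6 (1.24 ± 0.33), Tuba1a (1.15 ± 0.24) and Tubb5 (1.04 ± 0.20), and the values of Tubb2a (0.65 ± 0.21), Tuba1b (0.44 ± 0.17), Tuba1c (0.31 ± 0.19), Actb (0.25 ± 0.18) and Actg1 (-0.10 ± 0.19) did not pass. Coro1b (-0.10) and Tln1 (-0.08) were the lowest beside Actg1. Leaving out VeKO CL replicate 3 or VeKO UUO replicate 6, 1 at a time, ended the calls of Lcp1 and Tubb6, and leaving out VeKO CL replicate 6 ended that of Lcp1, with adjusted p up to 0.0690. Tubb2a (adjusted p = 0.0551) gained a call in 5 of 29 such fits, without VeWT CL replicate 1 or 3, VeKO CL replicate 5 or VeKO UUO replicate 2 or 4 (down to 0.0195).

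The count in VeKO mice moved with the form of the library names. Among the 4 VeKO UUO libraries with split names the actin share of counts was 0.785% to 1.05%, and among the 4 with joined names it was 0.589% to 0.695%, so the forms did not overlap. In VeWT UUO libraries the corresponding ranges were 0.945% to 1.00% and 0.792% to 1.02%. With split names alone, 21 actin and 6 tubulin genes were called higher in VeKO mice (10.5% of all genes) and 21 and 7 in VeWT mice (13.7%). With joined names alone, no actin or tubulin gene was called in VeKO mice (8 members at an unadjusted p below 0.05, 0 of all genes called), and 15 and 5 were called higher in VeWT mice (7.32% of all genes). The share of all genes at the unadjusted threshold is not given here for the VeKO fit. The VeKO comparison within the latter form rests on 2 CL libraries, of which replicate 2 is 1. Without it, in a fit where the remaining CL library is assumed to vary like the other groups, only Tmsb10 was called among the members (0.112% of all genes higher), and its log2 fold change went from 0.85 ± 0.49 to 3.10 ± 0.61. With the form as a covariate, 24 actin and 7 tubulin genes were called higher in VeWT mice (16.6% of all genes) and 18 and 6 in VeKO mice (10.7%), or 20 and 5 in VeKO mice without replicate 2 (11.2%).

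The numbers in the split names also went against the genotypes. The numbers 3 and 4 stood on VeKO CL and on VeWT UUO libraries, and 7 and 8 on VeWT CL and on VeKO UUO libraries. Whether a number marks an animal is not stated, and the study's methods count fewer Veptp control mice than there are VeWT UUO libraries. Over all genes, the deviations from the means of group and form correlated between the CL and UUO libraries of each of these numbers (0.438 for number 3, 0.291 for 4, 0.137 for 7 and 0.290 for 8). The numbers that stood on a single genotype had 0.201 (number 1), 0.4045 (2), 0.0632 (5) and 0.118 (6). Correlations between libraries with different numbers are not given here as a reference. Without these 8 libraries, 9 actin and 5 tubulin genes were called higher in VeWT mice (4.68% of all genes) and 1 and 2 in VeKO mice (0.852%). Whether any of these libraries carries the wrong label was not tested.

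**Figure D4:**
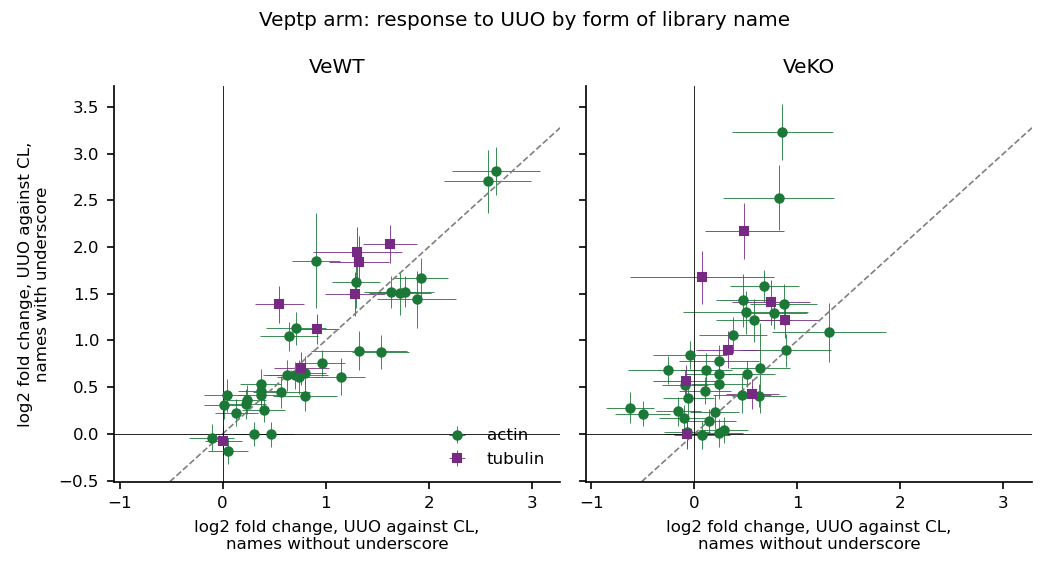
Log2 fold change of UUO against CL for the 42 genes in libraries with joined names (horizontal axis) and with split names (vertical axis), for VeWT (left) and VeKO (right), with standard errors as bars and the line of equality dashed. In VeKO mice most genes lie above the line, with medians over the actin genes of 0.24 in joined and 0.64 in split names.

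The difference of the response to UUO between the forms of name was itself tested over both genotypes. No member was called in the Veptp arm, where 0.101% of all genes were called higher and 0.269% lower, nor in the ABTAA arm (0%), by the quasi-likelihood test or DESeq2. Without a filter on low counts, 2 members were called in the Veptp arm and 1 in the ABTAA arm. With the filter, 9 members in the Veptp arm and 4 in the ABTAA arm had an unadjusted p below 0.05. The share of all genes at that threshold is not given here, so these counts are not read as results. The level itself differed widely between the forms. In the Veptp arm 15 members were higher and 14 lower in libraries with split names, where 34.0% and 28.4% of all genes were. Myl6 had 209 to 275 CPM in the 8 CL libraries with split names and 906 to 1574 CPM in the 5 with joined names (log2 difference -2.07 ± 0.11), while Cap1 had 81.7 to 112 CPM and 30.7 to 73.3 CPM (1.45 ± 0.12). In the ABTAA arm 5 members were higher and 12 lower (18.6% and 21.2% of all genes), and Pfn1 differed most (-1.38 ± 0.14), a gene that went the other way in the Veptp arm (1.04 ± 0.13). As shares of the 42 members, 35.7% were higher and 33.3% lower in the Veptp arm and 11.9% and 28.6% in the ABTAA arm. Without TMM scaling the splits became 27 higher and 5 lower in the Veptp arm, where the median over all genes went from 0.09 to 0.54, and 10 higher and 8 lower in the ABTAA arm, where it went from 0.01 to 0.15.

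VeKO and VeWT mice were compared directly to ask whether endothelial loss of Veptp altered the response. No member was called in UUO kidneys (0% of all genes, 6 members at an unadjusted p below 0.05), in CL kidneys (0%, 2 members) or for the difference of the responses (0%, 3 members), and DESeq2 called none. Each 0% is of adjusted calls. The unadjusted counts are given without the share of all genes at that threshold and are not read as results. In UUO kidneys 35 of 42 members had a log2 difference below 0, with medians of -0.16 for actin and -0.33 for tubulin genes against 0.01 for all genes. Flna had 119 to 280 CPM in VeKO and 211 to 387 CPM in VeWT UUO libraries (-0.55 ± 0.18). Over the 42 members the median difference was -0.39 with joined and -0.06 with split names. The summed mesenchymal markers lay between 466.4 and 1417 CPM in VeKO and between 1344 and 2366 CPM in VeWT UUO libraries. The proximal tubule sum had medians of 11902 CPM in VeKO and 6862 CPM in VeWT UUO libraries (4287 to 29347 and 4637 to 11892 CPM), and the endothelial sum 282 and 388 CPM (187 to 421 and 326 to 526.2 CPM). Below 0 were 10 of 10 mesenchymal, 10 of 10 endothelial, 13 of 14 leukocyte and 9 of 10 injured-tubule markers, and 8 of 10 proximal tubule markers were above 0. None of these markers was called, and their part in these differences was not tested.

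In PbWT mice, whose CL group includes sham-operated kidneys, 18 actin and 6 tubulin genes were higher in UUO kidneys and none was lower (17.9% of all 10923 genes higher, 19.4% lower). In PbKO mice it was 11 and 4 (3.94% and 2.42%). With all 12 groups in a single fit it was 12 and 6 in PbWT mice (10.2% of all genes higher) and 3 and 2 in PbKO mice (0.975%), and without TMM scaling 30 and 7 in PbWT mice (40.8%) and 16 and 4 in PbKO mice (5.19%). Thinned to the depth of the shallowest library, 15 and 6 were called higher in PbWT mice (7.98%) and 2 and 0 in PbKO mice (0.794%). The medians were 0.54 and 1.23 in PbWT and 0.40 and 0.66 in PbKO mice. Coro1a (2.46 ± 0.22), Tmsb10 (2.39 ± 0.33), Flna (1.84 ± 0.15), Arpc1b (1.61 ± 0.16) and Msn (1.48 ± 0.15) were the actin genes that rose most in PbWT mice. In PbKO mice Tmsb10 (2.14 ± 0.37), Coro1a (2.06 ± 0.26), Arpc1b (1.07 ± 0.16), Flna (0.95 ± 0.16) and Tpm4 (0.92 ± 0.18) led. The UUO libraries lay above all CL libraries for 20 actin and 6 tubulin genes in PbWT (16.9% of all genes) and for 19 and 1 in PbKO mice (6.21%). Tubb2b rose by 2.22 ± 0.21 in PbWT and 1.37 ± 0.23 in PbKO mice, Tubb5 by 1.51 ± 0.17 and 0.88 ± 0.18, Tuba1a by 1.45 ± 0.18 and 0.75 ± 0.19, and Tuba1b by 0.96 ± 0.15 and 0.58 ± 0.16. Tubb6 (1.86 ± 0.36) and Tubb2a (1.02 ± 0.19) rose in PbWT mice, with 0.83 ± 0.40 and 0.54 ± 0.20 in PbKO mice that did not pass, and Tuba1c passed in neither (0.38 ± 0.17 and 0.26 ± 0.18). In PbKO mice Actb had 0.39 ± 0.15 and Actg1 -0.11 ± 0.16, neither called. The lowest actin genes were Myl12b (-0.17), Myl6 (-0.16) and Arpc1a (-0.12) in PbWT and Actg1, Tln1 (-0.10) and Arpc1a (-0.07) in PbKO mice. In PbKO mice Tuba1a and Tuba1b lost their calls without PbKO CL replicate 2 or 4 or PbKO UUO replicate 2 or 4, and Tuba1b also without PbKO CL replicate 3 (adjusted p up to 0.120).

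Between the genotypes in UUO kidneys, 10 actin genes were lower in PbKO than in PbWT mice and none was higher, while 2 tubulin genes were lower and 1 was higher (12.0% of all genes higher, 6.58% lower). Of the 5 linkers and cross-linkers, 4 were lower. Lcp1 had 25.1, 38.2, 39.2 and 40.8 CPM in the 4 PbKO and 66.7, 70.9, 71.0 and 74.2 CPM in the 4 PbWT UUO libraries (log2 difference -0.99 ± 0.19, adjusted p = 0.000455). Msn had 91.4, 102, 109 and 142 CPM in PbKO and 182, 184, 198 and 219 CPM in PbWT libraries (-0.81 ± 0.14, adjusted p = 0.000259). For these genes, as for Flna and Iqgap1, every PbKO library was below every PbWT library.

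Flna had 117, 131, 133 and 152 CPM in PbKO and 209, 230, 232 and 237 CPM in PbWT UUO libraries (-0.76 ± 0.14). Iqgap1 had 186, 191, 204 and 212 CPM in PbKO and 238, 281, 298 and 298 CPM in PbWT UUO libraries (-0.49 ± 0.13). The other actin genes called lower were Tpm4 (-0.75 ± 0.16), Coro1a (-0.69 ± 0.19), Myh9 (-0.69 ± 0.15), Vasp (-0.65 ± 0.20), Vcl (-0.57 ± 0.15) and Arpc1b (-0.54 ± 0.15). The call of Vasp was lost without PbWT UUO replicate 1 or 2 or PbKO UUO replicate 2 or 3 (adjusted p up to 0.132). In total 13 actin and 2 tubulin genes did not overlap in this direction, where 9.58% of all genes did so. The actin isoforms differed little, with -0.06 ± 0.15 for Actb (95% interval -0.35 to 0.23) and 0.08 ± 0.15 for Actg1 (-0.22 to 0.38).

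Among the tubulins, Tubb5 had 136, 150, 158 and 209 CPM in PbKO and 213, 224, 246 and 293 CPM in PbWT UUO libraries (-0.56 ± 0.16, adjusted p = 0.015). Tubb2b was lower by a similar amount (-0.64 ± 0.19, adjusted p = 0.0182). Tubb4b went the other way, with 247, 267, 276 and 287 CPM in PbKO and 198, 203, 203 and 221 CPM in PbWT libraries (0.38 ± 0.13, adjusted p = 0.0429). Tubb4b lost its call without any single one of the 8 UUO libraries, without PbWT CL replicate 4 and without PbKO CL replicate 3 (adjusted p up to 0.105). Tubb5 lost it without PbWT UUO replicate 1 or PbKO UUO replicate 2 or 3 (up to 0.0628), and Tubb2b without PbWT UUO replicate 3 (0.0653).

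The 4 members called for the difference of the responses to UUO were all lower in PbKO than in PbWT mice (6.66% of all genes higher, 1.90% lower). They were Flna (-0.89 ± 0.22, adjusted p = 0.0121), Iqgap1 (-0.86 ± 0.19, adjusted p = 0.00587), Myh9 (-0.79 ± 0.23, adjusted p = 0.0299) and Msn (-0.76 ± 0.22, adjusted p = 0.0313). The calls of Msn and Myh9 were each lost in 8 of the 16 fits that left out a library, with adjusted p up to 0.0796 and 0.0962. Both were lost without PbWT CL replicate 4, PbKO CL replicate 1, PbWT UUO replicate 2 or 4 or PbKO UUO replicate 2 or 3, Msn also without PbWT CL replicate 2 or PbKO CL replicate 4, and Myh9 also without PbWT CL replicate 3 or PbKO CL replicate 2. Flna, in CL kidneys, had 61.2, 69.3, 70.1 and 73.0 CPM in PbKO and 40.7, 63.1, 71.1 and 77.9 CPM in PbWT libraries. In CL kidneys no member was called between the genotypes (0% of all genes, 2 members at an unadjusted p below 0.05, none by DESeq2). The 0% is of adjusted calls, and the share at the unadjusted threshold is not given here. The comparisons of this arm share their UUO and CL libraries and are not independent of each other. Those that use PbWT CL libraries include the unmarked sham-operated kidneys.

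**Figure D5:**
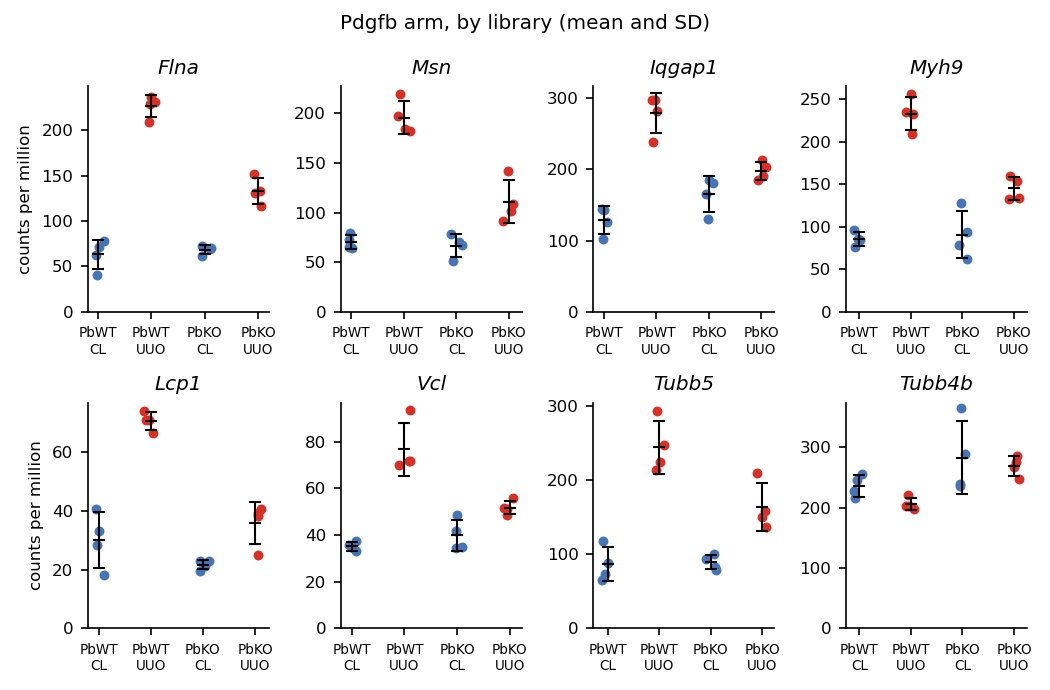
Level in CPM (TMM-scaled, axes from 0) of 8 genes in the 16 libraries of the Pdgfb arm, with CL in blue, UUO in red and black bars for the mean and SD. For Flna, Msn, Iqgap1, Myh9, Lcp1 and Vcl the 4 PbKO UUO libraries lie below the 4 PbWT UUO libraries, and for Tubb4b they lie above.

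These differences depended on the fit and moved with other markers. With all 12 groups in a single fit no actin or tubulin gene was called between PbKO and PbWT UUO kidneys, where 2.14% of all genes were called higher and 61 genes lower, against 719 in the fit of the arm alone. None was called for the difference of the responses (0.0819% of all genes higher, 0% lower). At an unadjusted p below 0.05 there were 11 and 5 members, counts without a share of all genes to set them against here. Without TMM scaling 20 actin and 4 tubulin genes were lower and none was higher, but 22.9% of all genes were lower and 6.01% higher too, with the median over all genes at -0.29. In the fit of the arm alone 8 of 14 tested leukocyte markers, 7 of 9 mesenchymal markers and 3 of 10 endothelial markers were called lower, and 9 of 10 proximal tubule markers were called higher. The leukocyte sum lay between 548 and 627 CPM in PbKO and between 778 and 1184 CPM in PbWT UUO libraries, with Cd3e at 0 in all PbKO UUO libraries, and the proximal tubule sum between 8783 and 23765 CPM and between 3783 and 5078 CPM. The mesenchymal sum lay between 519 and 1130 CPM and between 1392 and 1860 CPM. The part of these cell types in the differences was not tested. All 4 PbKO UUO libraries and PbWT UUO replicates 1 and 2 held counts of both Xist and Y-linked transcripts. In CL kidneys 2 PbWT and 0 PbKO libraries did so. Because all PbKO UUO libraries held both, a fit without such libraries was not possible for this group, and the part of this trait was not tested.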

How the data were processed

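Whole kidneys were profiled by Smart-seq3, and the authors aligned reads with STAR 2.7.3a to mm10, collapsed molecular identifiers with UMI-tools 1.1.4 and counted genes with featureCounts (Subread 1.4.6-p5); the annotation is not given in the sources used here. The deposited values are raw counts per gene, 172827 to 2341800 per library. Groups came from the labels. The labels do not say that replicates are separate animals, so p-values measure the spread between libraries.

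Each arm was fitted over its 4 groups with edgeR 4.0.16 (R 4.3.3, quasi-likelihood, TMM, filterByExpr, Benjamini-Hochberg over all genes of the arm, threshold 0.05). The median estimate of known fold changes was checked on simulated counts, which held no difference between the forms of name. Standard errors are the log2 fold change over the square root of F. DESeq2 1.42.0, edgeR's exact test, other filters and scalings, the form of name and each library left out were alternatives. In ABT mice 3 CL and UUO pairs with split names share a number and correlated by 0.397, 0.210 and 0.166. IgG libraries with split names share none. The reported fits are unpaired, and a block on these pairs was an alternative only. The members and gene lists were chosen with earlier results of these data known. Named were Actb, Actg1, the tubulins, the 5 called actin genes with the largest and the 3 with the lowest fold change in each UUO comparison, members called in the other comparisons, those not called in IgG mice, and the 3 largest changes each way among other actin and tubulin genes. Sequences came from GENCODE and RefSeq tables of GRCm38. Some withheld items are not reported here.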

Additional observations from a re-analysis of the deposited data

Results flagged for a closer look

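In VeWT UUO libraries the mean log2(CPM + 1) over the 8 tubulin genes was 7.69 in replicate 4, set apart from the nearest of the other 7 libraries at 7.35, the gap being 0.567 of the group's range against a 95% limit for 8 samples. This was 1 of 48 such checks, of which chance alone flags about 1 in 20.

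The response to UUO differed between PbKO and PbWT mice, by the interaction term of edgeR's quasi-likelihood fit, for Msn (-0.76), Flna (-0.89), Iqgap1 (-0.86) and Myh9 (-0.79), each on the log2 scale. With all 12 groups in a single fit none of these was called.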

How the results depend on the processing

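The counts of members called in UUO kidneys of IgG and ABT mice stayed within 1.5 times of the reported ones and no member was called between treated and control mice in the ABTAA and Veptp arms, apart from the values below. Single calls were less stable: of the values of single genes over all alternatives, 176 lost and 47 gained a call, 100 turned sign and 4333 did neither. Actg1 in IgG mice lost its call in 25 of 30 fits that left out a library (adjusted p up to 0.134), and Tuba1c in ABT mice without ABT CL replicate 5 or 6 or ABT UUO replicate 4 (up to 0.0588). Tln1 in IgG mice gained a call without IgG CL replicate 4 or 8 or IgG UUO replicate 6 or 8 (down to 0.0340). Fewer members were called after thinning to the shallowest library. Calls between PbKO and PbWT mice depended on the fit. Thinning leaves fewer counts and the fits by form fewer libraries by construction. For the other settings the cause was not tested. The settings that leave out VeKO CL replicate 2 were added after seeing the data. Without TMM scaling the median over all genes went from 0.02 to 0.23 in IgG, from 0.04 to 0.41 in PbWT mice and from -0.02 to -0.29 between PbKO and PbWT UUO kidneys, and the calls over all genes went from 1561 higher and 1740 lower to 2492 and 1087, from 1956 and 2119 to 4453 and 1153, and from 1315 and 719 to 657 and 2500.

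Counts without TMM scaling were 30 (actin higher, PbWT, against 18), 20 (actin lower, PbKO against PbWT in UUO, against 10), 4 (tubulin lower, PbKO against PbWT in UUO, against 2), 12 (members called, the PbKO difference of responses, against 4). Without TMM scaling, the sign turned for Arpc1a 0.097 (IgG) and 0.065 (ABT) and 0.072 (VeWT) and 0.26 (PbWT) and 0.015 (PbKO), Ezr 0.19 (IgG), Tubb4b 0.20 (IgG) and 0.12 (VeWT) and 0.18 (PbWT) and 0.0012 (PbKO), Myl12b 0.10 (VeWT) and 0.21 (PbWT), Actg1 0.0064 (VeKO) and 0.27 (PbWT), Coro1b 0.062 (VeKO), Tln1 0.079 (VeKO), Myl6 0.22 (PbWT). Counts with DESeq2 were 12 (actin higher, VeKO, against 6). With DESeq2, the sign turned for Tubb4b 0.014 (IgG) and 0.0017 (VeWT), Tln1 0.019 (VeKO). Counts without a filter on low counts were 1 (members called, difference of the response between forms, ABTAA arm, against 0), 2 (members called, difference of the response between forms, Veptp arm, against 0). Without a filter on low counts, the sign turned for Tubb4b -0.0022 (ABT), Arpc2 -0.0093 (VeWT). With a mean count of at least 20, the sign turned for Arpc1a 0.0058 (IgG) and 0.014 (ABT), Ezr 0.087 (IgG), Tubb4b 0.10 (IgG) and 0.0086 (VeWT). With edgeR's exact test, the sign turned for Ezr 0.014 (IgG), Tubb4b 0.032 (IgG). Counts with the compared groups alone were 3 (actin higher, VeKO, against 6). With the compared groups alone, the sign turned for Ezr 0.0096 (IgG), Tubb4b 0.023 (IgG). Counts in libraries with joined names were 0 (actin higher, VeKO, against 6), 0 (tubulin higher, VeKO, against 4). In libraries with joined names, the sign turned for Arpc1a 0.054 (IgG), Tubb4b 0.070 (IgG) and -0.0048 (ABT) and 0.0065 (VeWT) and -0.076 (VeKO), Actr2 -0.023 (ABT), Myl12b 0.053 (VeWT), Tuba1c -0.081 (VeKO). Without libraries with Xist and Y counts, the sign turned for Actr2 -0.014 (ABT). Counts with counts thinned to the shallowest library were 9 (actin higher, ABT, against 20), 4 (tubulin higher, ABT, against 7), 4 (members called, levels by form of name, ABTAA arm, against 17), 7 (actin higher, VeWT, against 15), 3 (tubulin higher, VeWT, against 7), 0 (actin higher, VeKO, against 6), 0 (tubulin higher, VeKO, against 4), 17 (members called, levels by form of name, Veptp arm, against 29), 2 (actin higher, PbKO, against 11), 0 (tubulin higher, PbKO, against 4), 6 (actin lower, PbKO against PbWT in UUO, against 10), 1 (tubulin lower, PbKO against PbWT in UUO, against 2), 1 (members called, the PbKO difference of responses, against 4). With counts thinned to the shallowest library, the sign turned for Ezr 0.16 (IgG), Tubb4b 0.32 (IgG) and 0.045 (VeWT), Arpc1a 0.28 (ABT) and 0.11 (PbKO), Actr2 -0.062 (ABT), Actg1 0.059 (VeKO), Coro1b 0.077 (VeKO). Counts with the form of name as a covariate were 24 (actin higher, VeWT, against 15), 18 (actin higher, VeKO, against 6). With the form of name as a covariate, the sign turned for Coro1b 0.018 (VeKO), Tubb4b -0.046 (VeKO). Counts in libraries with split names were 21 (actin higher, VeKO, against 6). In libraries with split names, the sign turned for Actg1 0.015 (VeKO), Coro1b 0.22 (VeKO), Tln1 0.28 (VeKO), Tubb4b -0.0028 (VeKO). Counts without the 8 split-name Veptp libraries whose number stands on 1 genotype in CL and the other in UUO were 9 (actin higher, VeWT, against 15), 1 (actin higher, VeKO, against 6), 2 (tubulin higher, VeKO, against 4). Without these 8 libraries, the sign turned for Tubb4b -0.024 (VeKO). Counts in libraries with joined names and without VeKO CL replicate 2 were 1 (actin higher, VeKO, against 6), 0 (tubulin higher, VeKO, against 4). In libraries with joined names and without VeKO CL replicate 2, the sign turned for Myl12b 0.023 (VeWT), Tuba1c -0.20 (VeKO), Tubb4b -0.044 (VeKO). Counts with the form as a covariate and without VeKO CL replicate 2 were 24 (actin higher, VeWT, against 15), 20 (actin higher, VeKO, against 6). With the form as a covariate and without VeKO CL replicate 2, the sign turned for Coro1b 0.073 (VeKO), Tln1 0.0017 (VeKO), Tubb4b -0.040 (VeKO). Counts with all 12 groups in 1 fit were 12 (actin higher, VeKO, against 6), 3 (actin higher, PbKO, against 11), 2 (tubulin higher, PbKO, against 4), 0 (actin lower, PbKO against PbWT in UUO, against 10), 0 (tubulin lower, PbKO against PbWT in UUO, against 2), 0 (members called, the PbKO difference of responses, against 4). With all 12 groups in 1 fit, the sign turned for Arpc2 -0.0067 (VeWT).

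When each library was left out in turn, the sign turned for Tubb4b (IgG, -0.061 to 0.023), Actr2 (ABT, -0.017 to 0.082), Tubb4b (ABT, -0.013 to 0.097), Arpc2 (VeWT, -0.068 to 0.096), Myl12b (VeWT, -0.13 to 0.056), Tubb4b (VeWT, -0.12 to 0.055), Tubb4b (VeKO, -0.074 to 0.13), Myl12b (PbWT, -0.31 to 0.0056), Actg1 (PbKO, -0.18 to 0.068), Arpc1a (PbKO, -0.17 to 0.018), Tln1 (PbKO, -0.20 to 0.019), Tubb4b (PbKO, -0.16 to 0.080). Counts moved by more than 1.5 times for tubulin higher, PbKO mice (2 to 4), tubulin lower, PbKO against PbWT in UUO (1 to 2), members called, PbKO difference of responses (2 to 5).

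In the Veptp arm 8 CL and UUO pairs share a number, with correlations of their deviations from the means of group and form of 0.0632 to 0.438, 7 of them above 0.1 and 1 below, so they were not taken as pairs, and whether a number marks an animal was not tested. Counts with the replicate number as a block were 23 (actin higher, VeWT, against 15, with 14.3% of all genes higher), 16 (actin higher, VeKO, against 6, with 10.1%). With the replicate number as a block, the sign turned for Actg1 0.037 (VeKO), Coro1b 0.033 (VeKO), Tubb4b -0.030 (VeKO). In the ABTAA arm 3 pairs of ABT libraries and no IgG libraries share a number in split names, and the block on these pairs gave 24 actin and 7 tubulin genes in IgG (17.2% of all genes higher) and 22 and 7 in ABT mice (13.8%) and moved no count by more than 1.5 times. No paired analysis was possible for the Pdgfb arm because a number in its library names occurs more than once within a group and so marks no single pair, and PbWT CL and UUO libraries share none.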
